A study of Mus musculus with 6 samples.

Results

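The aminoacyl-tRNA synthetases described here are the enzymes that join each amino acid to its transfer RNA (tRNA). They were taken as 36 genes by Ensembl ID and symbol: 20 for the cytosolic enzymes, and 16 for mitochondrial enzymes, whose symbols end in 2. All 36 were found among the 55359 rows of the count table, and all 36 passed the filter on low counts that left 11190 genes to be tested. The cells were myeloid-derived suppressor cells (MDSCs), immature myeloid cells that restrain T cells. Bone marrow of C57BL/6 mice was cultured for 4 days with 40 ng/ml of IL-6 and 40 ng/ml of GM-CSF, and a commercial kit then yielded the polymorphonuclear (PMN) fraction. In the 3 mtDNA libraries the re-seeded cells had received mitochondrial DNA (mtDNA), 250 ng/ml with Lipofectamine 2000, a lipid reagent for transfection, for 12 h. The 3 blank libraries came from cells without mtDNA. Whether these cells were given the reagent is not stated, no library holds another DNA, and neither the age or sex of the mice nor pooling is given. Since nothing says that the 3 libraries of a group derive from separate mice or cultures, the p-values cover the spread among these 6 libraries alone, which may be technical.

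A synthetase activates its amino acid with ATP and passes it to the tRNAs that carry the matching anticodon, and many synthetases also remove amino acids that were joined in error. Class I and class II enzymes differ in the fold of the catalytic domain. In animal cells several cytosolic enzymes sit in a multi-synthetase complex held by the scaffold proteins encoded by Aimp1, Aimp2 and Eef1e1. Mitochondria translate their own few messages with a separate set of synthetases, which the nucleus encodes and the organelle imports. Gars and Kars each encode both a cytosolic and a mitochondrial form, and Eprs encodes a single protein that charges both glutamate and proline. When amino acids run short, uncharged tRNA activates the kinase encoded by Eif2ak4 (GCN2), and the transcription factor ATF4 then binds amino acid response elements, which many genes of cytosolic synthetases carry.

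Because those elements are the best known control shared by the cytosolic genes, their matches in the members' promoters are shown first. RefSeq promoter windows of build GRCm38.p6, from 250 bases before to 50 bases after a gene's start, were found for 27 of the 36 members, as 28 windows. Cars, Hars, Lars, Nars, Rars, Vars, Wars, Hars2 and Pars2 had no entry. For Dars, Kars, Sars and Sars2 the last 30 bases of the window were not found in an annotated transcript of the gene (GENCODE M21). For Mars this was not checked. The start used for these windows is thus less certain. The letters TGATGNAA, searched on both strands, stood in 5 of the 28 windows (17.9%), against 3.97% of all 32851 windows. The 5 genes were Aars, Gars, Iars, Tars and Yars, all cytosolic. None of the matches overlapped a match of another motif searched. For each of the 5 genes the match that begins less than 50 bases before the start, or after it, is given in a stretch of 30 bases along the strand of the gene, with the match, on either strand, in capitals.
Aars, chr8:111033840-111033869 (+): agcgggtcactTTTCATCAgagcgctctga
Gars, chr6:55037960-55037989 (+): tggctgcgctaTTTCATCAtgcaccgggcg
Iars, chr13:49682126-49682155 (+): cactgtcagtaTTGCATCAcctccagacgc
Tars, chr15:11399655-11399684 (-): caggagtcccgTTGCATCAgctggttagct
Yars, chr4:129189895-129189924 (+): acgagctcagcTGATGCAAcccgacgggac

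The palindromic E-box CACGTG, which proteins of the MYC and USF families bind, stood in 5 member windows as well (17.9%, against 7.15% of all windows): those of Aars, Ears2, Farsb, Iars and Tars. Aars, Iars and Tars thus held both motifs. The 250 bases before the start of Iars are printed because it was the only one of these 3 genes that passed the test given further on. Capitals mark the match of CACGTG.
Iars, chr13:49681880-49682129 (+): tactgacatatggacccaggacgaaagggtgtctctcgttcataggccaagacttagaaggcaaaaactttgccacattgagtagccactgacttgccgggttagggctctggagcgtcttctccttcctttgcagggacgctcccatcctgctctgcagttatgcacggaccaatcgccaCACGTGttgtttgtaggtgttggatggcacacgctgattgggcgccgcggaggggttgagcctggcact

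The palindrome TTCNNNGAA, which STAT proteins bind at gamma-activated sites, stood in 3 member windows (10.7%, against 8.3% of all): those of Aars, Kars and Nars2. GAAANNGAA, the core of interferon-stimulated response elements, was searched on both strands and stood in 1 member window, that of Qars (3.57%, against 8.56%). The CCAAT box was present in 13 of the 28 (46.4%, against 37.4%). The GC box GGGCGG, also searched on both strands, stood in 19 (67.9%, against 35.7%). These are matches of letters in a window and not measured binding sites.

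Library totals ranged from 4018360 to 4911103 counts. Values below are CPM, counts scaled to library size by the TMM method, with 1 read worth 0.2 to 0.256 CPM. The labelled PMN fraction carried granulocytic RNA such as S100a8, at 1698 CPM on average in blank, but Ly6g, the defining surface marker of mouse neutrophils, had only 65 reads over the 3 blank and 78 over the 3 mtDNA libraries. Csf1r, the receptor of monocytes and macrophages, had 1424 CPM in blank, and the macrophage gene Adgre1 had 501. The 11 markers of monocytes and macrophages summed to 3239 to 3355 CPM in blank and 3854 to 4035 in mtDNA libraries, and 7 of the 11 rose (edgeR adjusted p under 0.05). The 16 genes listed as neutrophilic markers summed to 8896 to 9326 and 9662 to 10455 CPM, and 2 of 15 tested rose. The risen shares were thus 63.6% and 13.3%, against 11.9% of all genes tested. Single genes moved far within both sums: Fcgr1 averaged 56.4 CPM in blank and 327 in mtDNA libraries, and Ly6c2 538 and 968. Ly6c2, 1 of the 2 risen genes of the neutrophilic list, is expressed by monocytic cells too. The higher sum of that list in mtDNA libraries therefore cannot be read as neutrophilic RNA alone. Of the 15 neutrophilic markers tested 12 had positive and 3 negative estimates, and Mmp8, the most abundant, averaged 2545 and 2558 CPM. Other marker sums were smaller: 720 to 734 and 755 to 762 CPM for dendritic cells, 193 to 215 and 217 to 230 for eosinophils, basophils and mast cells, 17.2 to 18.4 and 15.6 to 22.7 for lymphocytes (with Ncr1 at 0 in every library), and 38.7 to 46.1 and 40.9 to 42.8 for erythroid and stromal cells. The part of these shifts in the values below was not tested, and in such bulk RNA fewer cells of a type and less RNA per cell cannot be told apart.

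Most synthetases differed little between the groups. Of the 36 members, 2 rose and 5 fell at an edgeR adjusted p under 0.05, so 29 did not pass. Among all 11190 genes tested, 11.9% rose, 5.98% fell and 17.8% changed in either direction. The 2 rises (5.56% of the members) lie under the background share of rises, and the 5 falls (13.9%) lie above that of falls. The estimate was negative for 29 of the 36 members and for 52.0% of all tested genes. Its median over the members was -0.16 on the log2 scale, against -0.01 for all genes.

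**Figure D1:**
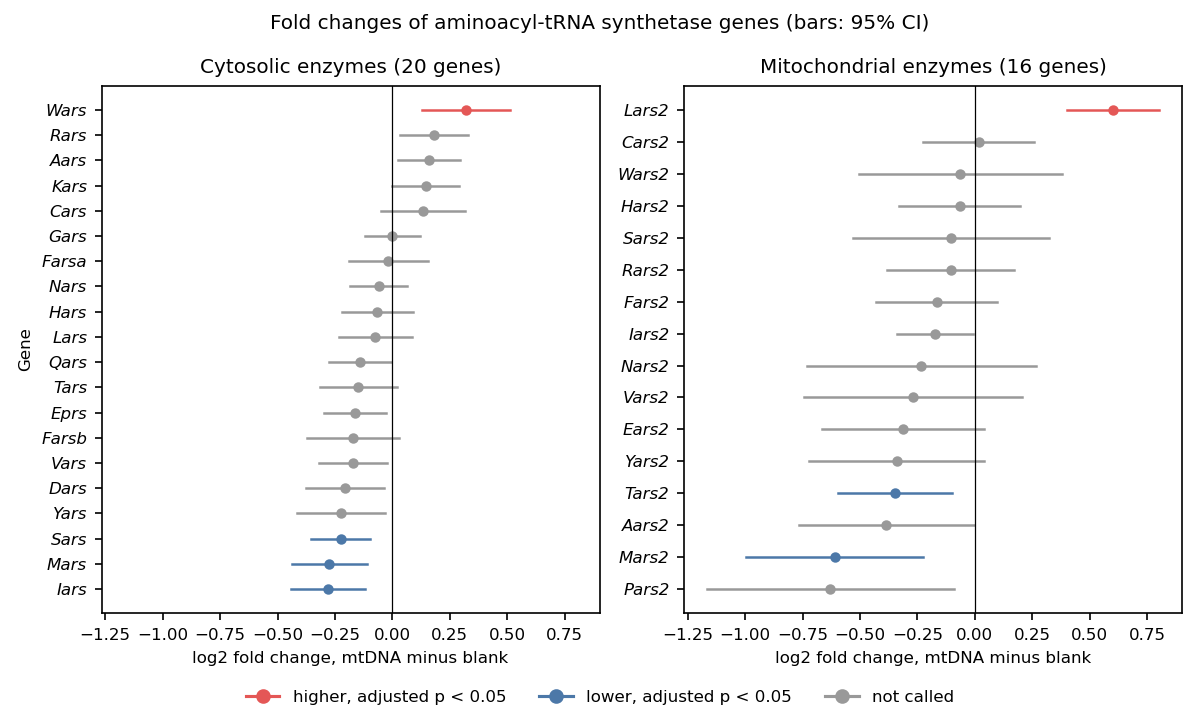
Log2 fold change, mtDNA minus blank, of the 36 synthetases with 95% confidence intervals from edgeR (n = 3 libraries per group), cytosolic and mitochondrial enzymes apart, with called genes in colour. Estimates lie between -0.63 for Pars2 and 0.60 for Lars2, and 29 of the 36 are below 0.

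The 20 cytosolic genes had a median log2 fold change of -0.11 with 1 rise and 3 falls, and 15 of the 20 estimates were negative. The 16 mitochondrial genes had a median of -0.20 with 1 rise and 2 falls, and 14 of the 16 were negative. No test was made of the difference between the compartments. All 3 mtDNA libraries lay above all 3 blank ones in 2 cytosolic genes (10%) and 1 mitochondrial gene (6.25%), against 17.9% of all genes. All 3 lay below in 9 cytosolic (45.0%) and 4 mitochondrial genes (25.0%), against 15.6% of all genes. An unadjusted p under 0.05 was reached by 11 cytosolic and 6 mitochondrial genes, and by 3310 of the 11190 genes.

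The counts of called members changed with some scalings and with the test. With median-ratio factors in edgeR they were the same as with TMM, 1 rise and 3 falls among cytosolic and 1 rise and 2 falls among mitochondrial genes. With upper-quartile factors 0 cytosolic genes rose and 9 fell, and 1 mitochondrial gene rose and 3 fell. With library totals alone 0 cytosolic genes rose and 11 fell, and 1 mitochondrial gene rose and 5 fell, while the median of all tested genes moved from -0.01 to -0.13. The falls and rises named below are relative to the TMM scaling, under which the median gene stayed near 0. DESeq2, another test, called 0 cytosolic genes, and called 1 mitochondrial gene higher and 0 lower, while its median log2 fold changes, -0.11 for cytosolic and -0.21 for mitochondrial genes, lay close to those of edgeR.

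**Figure D2:**
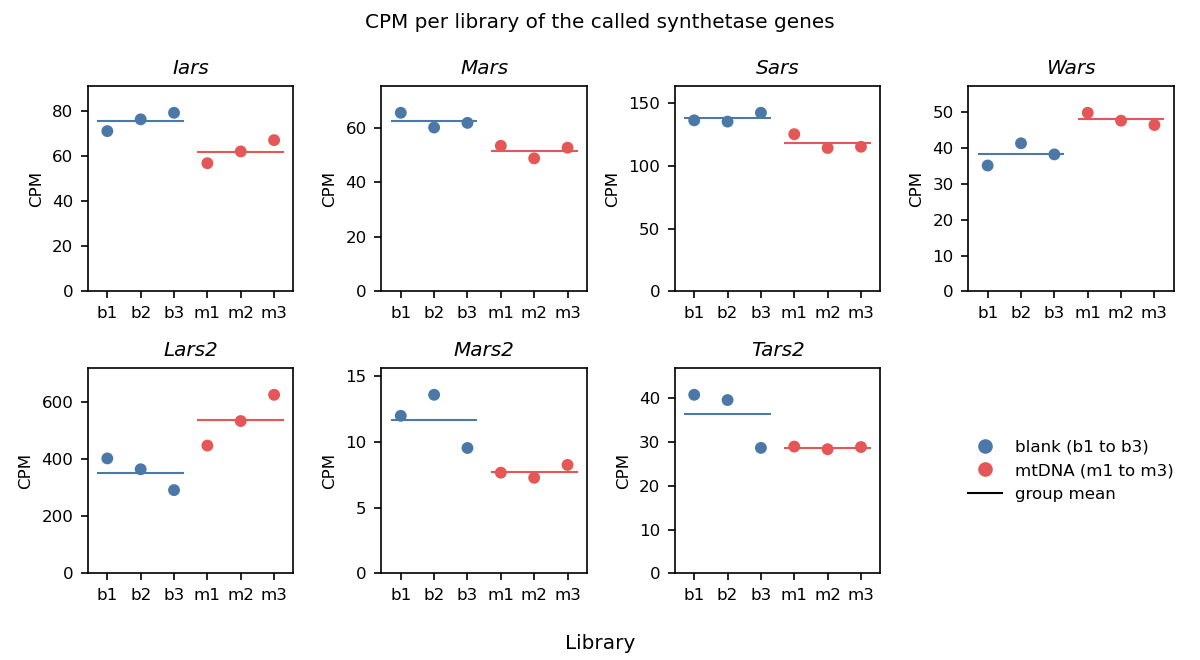
TMM-scaled CPM of the 7 called synthetases in each of the 6 libraries; points are libraries (b, blank and m, mtDNA) and lines are group means. Lars2 and Wars are higher in all 3 mtDNA libraries, Iars, Mars, Sars and Mars2 are lower in all 3, and Tars2 has 1 blank library, at 28.6 CPM, among the mtDNA values.

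Wars (ENSMUSG00000021266), which charges tRNA with tryptophan and is known as an interferon gamma-inducible gene, was the only cytosolic member that rose in the edgeR test. It had 35.1, 41.3 and 38.2 CPM in blank 1, 2 and 3 and 49.8, 47.6 and 46.4 CPM in mtDNA 1, 2 and 3. The groups did not overlap, and the lowest mtDNA library lay above the highest blank one. The rise was 1.25-fold (log2 0.32 ± 0.091 SE, edgeR adjusted p = 0.0171). The call ended with DESeq2 (adjusted p = 0.162), upper-quartile factors (0.0604) and library totals (0.106). In edgeR it also ended without blank 1 (adjusted p = 0.0811), blank 3 (0.0526) or mtDNA 1 (0.064), with a log2 change of 0.26 to 0.38 over the 6 omissions.

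Both cytosolic genes of the multi-synthetase complex that passed the test fell. Iars (ENSMUSG00000037851), for isoleucine, had 70.9, 76.1 and 79.0 CPM in the blank libraries and 56.7, 61.9 and 66.9 CPM in the mtDNA libraries. Every mtDNA library lay below every blank one. The log2 fold change was -0.28 ± 0.078 (edgeR adjusted p = 0.0145). The call ended with DESeq2 (adjusted p = 0.124) and, in edgeR, without blank 3 (0.0758) or mtDNA 1 (0.0684). Mars (ENSMUSG00000040354), whose enzyme charges the methionine tRNAs that also start every cytosolic protein, had 65.5, 60.1 and 61.8 CPM in blank and 53.4, 48.8 and 52.7 CPM in mtDNA libraries. The groups were again apart, with a log2 fold change of -0.27 ± 0.079 (edgeR adjusted p = 0.0185). This call ended with DESeq2 (adjusted p = 0.184) and, in edgeR, without blank 1 (0.0756) or mtDNA 2 (0.0918).

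Of the 8 enzymes of the complex (Dars, Eprs, Iars, Kars, Lars, Mars, Qars and Rars) 0 rose and 2 fell (25.0%). Among all genes 11.9% rose and 5.98% fell. The median log2 fold change of the 8 was -0.15. The 12 cytosolic genes outside the complex had 1 rise and 1 fall (8.33% each) and a median of -0.06. In 5 of the 8 (62.5%) all mtDNA libraries lay below all blank ones. The same held for 4 of the 12 genes outside the complex (33.3%) and for 15.6% of all genes. The uncalled of the 5 were Dars, for aspartate (log2 -0.21, edgeR adjusted p = 0.0851), Eprs (-0.16, 0.0954) and Qars, for glutamine (-0.14, 0.154). Rars, for arginine, pointed the other way: it had 78.4, 71.9 and 72.8 CPM in blank and 90.5, 80.8 and 82.1 CPM in mtDNA libraries. Its groups did not overlap, yet it did not pass (log2 0.18 ± 0.072, edgeR adjusted p = 0.0909). Kars, for lysine, had log2 0.14 (edgeR adjusted p = 0.173) and Lars, for leucine, -0.07 (0.557).

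Sars (ENSMUSG00000068739), for serine, which stands outside the complex, had 136, 135 and 142 CPM in blank and 125, 114 and 115 CPM in mtDNA libraries. Its groups did not overlap, and the log2 fold change was -0.23 ± 0.061 (edgeR adjusted p = 0.0125). The call ended with DESeq2 (adjusted p = 0.0927) and, in edgeR, without blank 3 (0.0627), mtDNA 2 (0.0657) or mtDNA 3 (0.0567). By catalytic class, the 9 class I enzymes had 1 rise and 2 falls with a median of -0.14. The 10 class II enzymes had 0 rises and 1 fall with a median of -0.06. Eprs, whose protein charges both glutamate and proline, was counted in neither class. Of all genes 11.9% rose and 5.98% fell.

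The other 16 cytosolic genes did not pass. Gars, for glycine, had the estimate nearest 0, with 145, 151 and 154 CPM in blank and 154, 145 and 152 CPM in mtDNA libraries, and a 95% confidence interval of the log2 fold change from -0.12 to 0.12. Its 3 values in each group covered almost the same range. Negative estimates with groups that did not overlap were also found for Vars, for valine (log2 -0.17, edgeR adjusted p = 0.0998), Yars, for tyrosine (-0.22, 0.106), and Tars, for threonine (-0.15, 0.23). Aars, for alanine, had 120, 140 and 131 CPM in blank and 152, 148 and 138 CPM in mtDNA libraries (log2 0.16, edgeR adjusted p = 0.103), so that mtDNA 3 lay below blank 2. It passed without blank 2 (edgeR adjusted p = 0.0405). Of the rest, Cars, for cysteine, had log2 0.13, and Farsa and Farsb, which encode the subunits of the phenylalanine enzyme, had -0.02 and -0.17. Hars, for histidine, had -0.07, and Nars, for asparagine, had -0.06.

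The 5 genes whose promoters held the amino acid response letters did not share a direction. Their log2 fold changes were 0.16 for Aars, -0.00 for Gars, -0.28 for Iars, -0.15 for Tars and -0.22 for Yars, of which only Iars passed the edgeR test.

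Lars2 (ENSMUSG00000035202), the mitochondrial leucine enzyme, had the smallest p of the 36 members, the larger of the 2 rises and the most reads. It had 1712, 1823 and 1225 reads in blank 1, 2 and 3 and 1752, 2492 and 2958 reads in mtDNA 1, 2 and 3, which is 403, 365 and 292 CPM and 448, 534 and 626 CPM. The groups did not overlap, although both were spread widely: blank 3 was low, and mtDNA 1 lay nearer to blank 1 than to mtDNA 3. The rise was 1.52-fold (log2 0.60 ± 0.097, edgeR adjusted p = 7.76e-05). It was the only one of the 7 calls that held in each of the 14 alternatives, with a DESeq2 adjusted p of 0.0202, a log2 change of 0.48 under library totals, and 0.47 to 0.71 over the omissions of single libraries.

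Some other abundant rows, chosen after their values were seen, moved with Lars2. ENSMUSG00000119584, an ID with no symbol in the tables used here, had 2606, 2033 and 1801 CPM in blank and 2828, 3511 and 4363 CPM in mtDNA libraries. Its 6 libraries fell in the same order as those of Lars2, from blank 3 at the bottom to mtDNA 3 at the top. Its log2 fold change was 0.73 ± 0.11 (edgeR adjusted p = 4.42e-05). The mitochondrially encoded ribosomal RNA mt-Rnr2 had 1183, 1108 and 1027 CPM and 1292, 1494 and 1460 CPM (log2 0.36 ± 0.057, edgeR adjusted p = 7.14e-05), and mt-Rnr1 rose by log2 0.20 ± 0.055 (edgeR adjusted p = 0.0128). Reads of Lars2 per read of ENSMUSG00000119584 were 0.155, 0.18 and 0.162 in blank and 0.158, 0.152 and 0.144 in mtDNA libraries, so this ratio overlapped between the groups. Per read of mt-Rnr2 the ratios were 0.341, 0.33 and 0.285 and 0.346, 0.357 and 0.429, and per read of mt-Rnr1 they were 0.916, 0.822 and 0.749 and 0.949, 1.05 and 1.29. Neither of these ratios overlapped between the groups, and mtDNA 3 stood highest in both. Annotated Lars2 transcripts (GENCODE M21) shared 0 of 11292 windows of 75 bases with transcripts of other genes, and 0 of 11125 windows of 20 bases with mt-Rnr1 or mt-Rnr2 on either strand. ENSMUSG00000119584 is not in that annotation, so sequence shared with it was not searched, and what kind of RNA it is was not settled here. The part of these abundant RNAs in the Lars2 count was not tested.

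**Figure D3:**
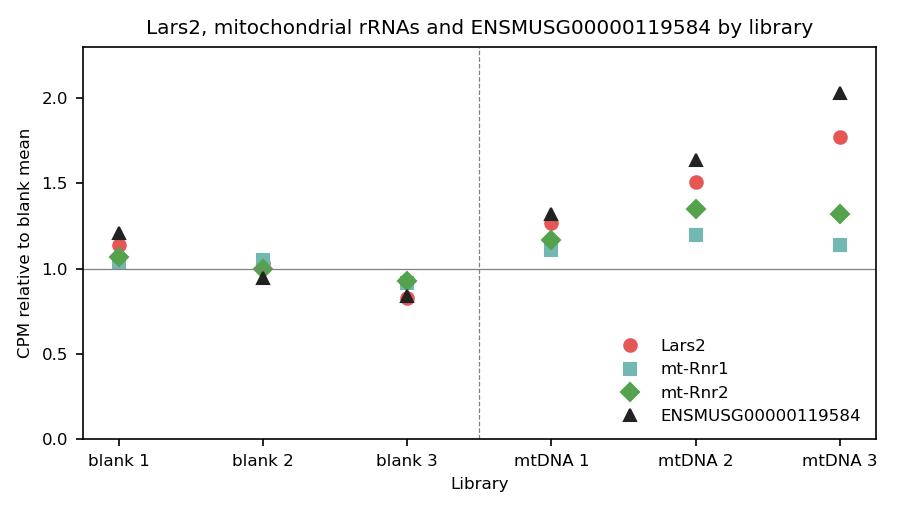
CPM of Lars2, mt-Rnr1, mt-Rnr2 and ENSMUSG00000119584 in each library, divided by the mean of the 3 blank libraries. Lars2 runs from 0.827 in blank 3 to 1.77 in mtDNA 3 and ENSMUSG00000119584 from 0.839 to 2.03 in the same library order, while mt-Rnr1 stays between 0.918 and 1.2.

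Of the 2 mitochondrial genes that fell, Mars2 was thinly counted and Tars2 had overlapping groups. Mars2 (ENSMUSG00000046994), for methionine, had 12.0, 13.6 and 9.55 CPM in blank and 7.67, 7.28 and 8.26 CPM in mtDNA libraries, from 159 and 103 reads. The groups did not overlap, and the log2 fold change was -0.61 ± 0.19 (edgeR adjusted p = 0.0253). The call ended with DESeq2 (adjusted p = 0.24) and, in edgeR, without blank 1 (0.0595), blank 2 (0.147), mtDNA 1 (0.059) or mtDNA 2 (0.083). Tars2 (ENSMUSG00000028107), for threonine, had 40.7, 39.5 and 28.6 CPM in blank and 28.9, 28.3 and 28.8 CPM in mtDNA libraries, so that blank 3 lay among the mtDNA values. Its log2 fold change was -0.35 ± 0.12 (edgeR adjusted p = 0.0482). The call ended with DESeq2 (adjusted p = 0.269), limma-voom (0.0687) and when at least 1 CPM was required in every library (0.0505). In edgeR it held only without blank 3 (adjusted p = 0.00415) among the omissions, and ended without blank 1 (0.195), blank 2 (0.186), mtDNA 1 (0.0872), mtDNA 2 (0.108) or mtDNA 3 (0.0906).

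The other 13 mitochondrial genes did not pass, and all but Cars2, for cysteine (log2 0.02, edgeR adjusted p = 0.942), had negative estimates. The lowest was that of Pars2, for proline, with 5.89, 7.41 and 5.73 CPM in blank and 3.07, 3.64 and 5.50 CPM in mtDNA libraries. Its groups were apart by a narrow margin, and it rested on 86 and 55 reads (log2 -0.63 ± 0.26, edgeR adjusted p = 0.103), passing without mtDNA 3 (0.0405). Aars2, for alanine, and Yars2, for tyrosine, also had every mtDNA library below every blank one (log2 -0.39 and -0.34, edgeR adjusted p = 0.162 and 0.226). Iars2, for isoleucine, the most read of these 13, had 85.7, 76.3 and 76.4 CPM and 67.2, 77.5 and 66.0 CPM (log2 -0.17, edgeR adjusted p = 0.142) and passed without mtDNA 2 (0.0491). Ears2, for glutamate, had log2 -0.31, Vars2, for valine, -0.27 and Nars2, for asparagine, -0.23. Fars2, for phenylalanine, had -0.17, Rars2, for arginine, -0.10 and Sars2, for serine, -0.10. Hars2, for histidine, had -0.07 and Wars2, for tryptophan, -0.06.

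Some members have annotated sequence in common with neighbouring genes (GENCODE M21). Whether reads from such stretches were counted for either gene is not known, since the strand setting is not given. Of the read-length windows of Iars2, 22.1% also lie in other genes, nearly all in Rab3gap2 on the opposite strand. For Fars2 the share was 7.9%, mostly with Nrn1, for Farsb 6.24% with Sgpp2 and for Vars2 5.42%, mostly on the opposite strand as well. Aars shared 13.2%, nearly all with Exosc6 on the same strand, where strand cannot separate the genes. The neighbours Hars and Hars2 shared 121 windows on opposite strands.

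Per kilobase of transcript, a scale on which genes can be compared, the levels of the members in blank cells spanned a wide range. The highest was Lars2, at 90.8 ± 14.4 CPM per kilobase (SD, n = 3), followed by the cytosolic genes Nars at 71.0 ± 4.23, Gars at 63.1 ± 2.08, Qars at 46.5 ± 3.42 and Kars at 41.1 ± 2.45. The count of Lars2 moved with that of ENSMUSG00000119584, as given above, and the part of that RNA in the Lars2 level was not tested. Nars and Gars were separated by more than the sum of their SDs, and Kars and Sars, at 38.6 ± 1.03, were not. The lowest cytosolic gene was Cars at 13.6 ± 1.05, beside Tars at 14.2 ± 0.17. After Lars2 the mitochondrial genes stood near or below the lowest cytosolic ones: Tars2 at 15.1 ± 2.77, Iars2 at 14.5 ± 0.984 and Cars2 at 11.4 ± 0.306. Tars2 and Iars2 did not differ beyond their spread. The lowest of all was Mars2 at 1.04 ± 0.182, whose annotated transcript is 11294 bases long.

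**Figure D4:**
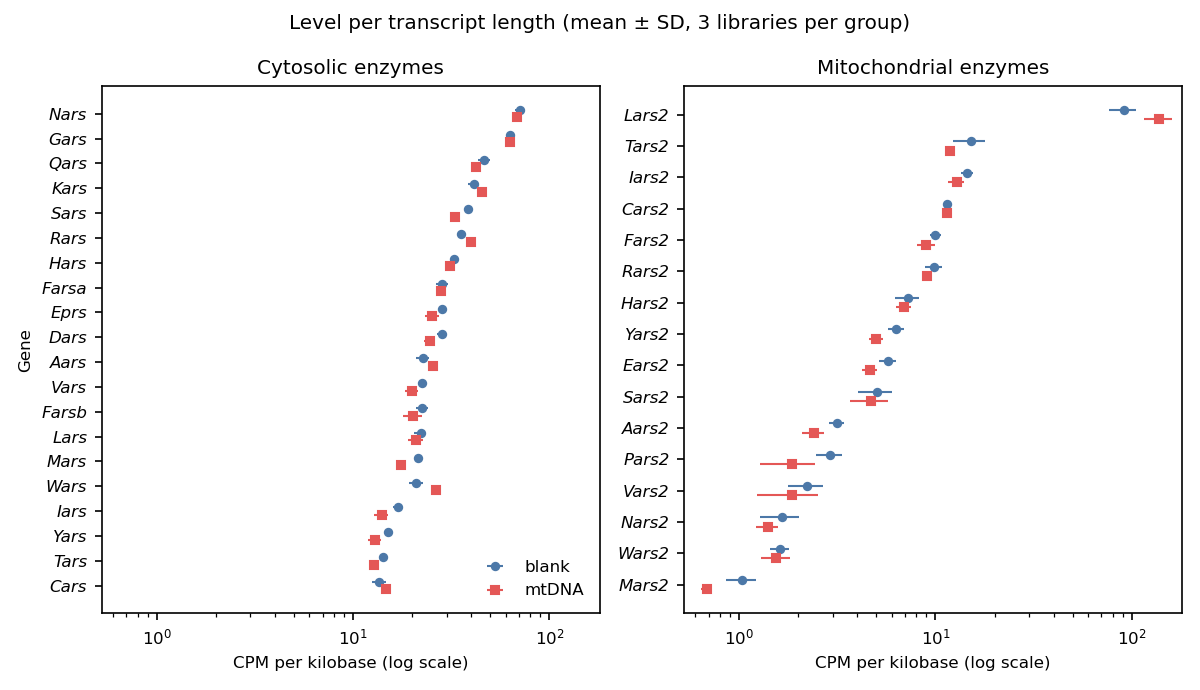
CPM per kilobase of transcript, on a log axis, of the 36 synthetases as the mean ± SD of the 3 blank and of the 3 mtDNA libraries, ordered by the blank mean within each compartment. Cytosolic genes lie between 13.6 (Cars) and 71.0 (Nars) in blank, and mitochondrial genes between 1.04 (Mars2) and 90.8 (Lars2).

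Set side by side by amino acid, 13 pairs have 1 cytosolic and 1 mitochondrial gene. In 11 of the 13 the cytosolic gene had the higher level per length in blank cells, from 1.17 times for isoleucine to 20.5 times for methionine and 43.0 times for asparagine. The exceptions were threonine, where Tars stood at 0.94 of Tars2, and leucine, where Lars stood at 0.243 of Lars2. The ratio for leucine depends on the Lars2 count, in which the part of other abundant RNAs was not tested. The ratio for methionine depends on the annotated lengths, 2939 bases for Mars and 11294 for Mars2. Before division by length these genes had 62.5 and 11.7 CPM in blank cells. Both estimates of the fold change were negative in 8 pairs and both positive in 1, that of cysteine. The 4 pairs of opposite sign were those of alanine, leucine, arginine and tryptophan. Tryptophan paired the cytosolic gene that rose, Wars at log2 0.32, with Wars2 at -0.06, and methionine was the only amino acid for which both genes fell in the edgeR test (-0.27 and -0.61).

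Summed over the 20 cytosolic genes, the message came to 1742, 1760 and 1794 CPM in blank and 1690, 1695 and 1686 CPM in mtDNA libraries, a ratio of 0.958 with no overlap. Under library totals alone the ratio was 0.882. The 16 mitochondrial genes summed to 689, 652 and 572 CPM and 693, 779 and 874 CPM, a ratio of 1.23, with blank 1 just under mtDNA 1. That sum was mostly Lars2, which held 58.5%, 56.1% and 51.1% of it in the blank and 64.6%, 68.5% and 71.6% in the mtDNA libraries. Without Lars2, a sum chosen after the values were seen, the other 15 came to 286, 286 and 280 CPM in blank and 245, 245 and 248 CPM in mtDNA libraries. The direction thus turned, to a ratio of 0.866, and the groups did not overlap.

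**Figure D5:**
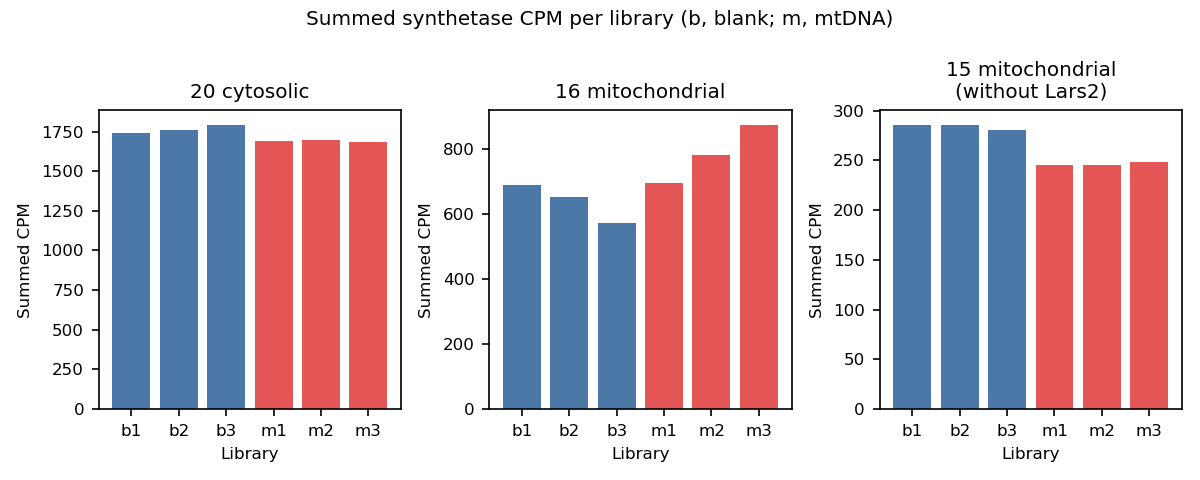
Summed CPM of the cytosolic genes, the mitochondrial genes and the mitochondrial genes without Lars2, as 1 bar per library (b, blank and m, mtDNA). The mitochondrial sum is higher in mtDNA libraries (ratio 1.23) with Lars2 and lower (0.866) without it.

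The genes around the synthetases were read from lists of known function, beside 11.9% rises and 5.98% falls among all genes in edgeR. Of the 3 scaffold genes of the multi-synthetase complex 0 rose and 1 fell: Aimp2 had 18.4, 18.2 and 16 CPM in blank and 11.8, 10.9 and 15.7 CPM in mtDNA libraries. The groups were barely apart (log2 -0.45 ± 0.16, edgeR adjusted p = 0.0487). The call held only without mtDNA 3 among the omissions of a library (adjusted p of 0.0592 to 0.204 in the others), and ended with DESeq2 (0.313) and the filter of 1 CPM in all libraries (0.0517). Of 13 tested factors that help charge or proofread tRNA, among them the subunits of the glutamine amidotransferase, 0 rose and 0 fell in edgeR or DESeq2. One of the 13 had an unadjusted p under 0.05: Qrsl1, a subunit of that amidotransferase (log2 -0.35, edgeR adjusted p = 0.126).

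Before it can be charged, a tRNA is cut out of a longer precursor and its ends are finished. In the list of tRNA maturation 0 of 19 tested genes rose (against 11.9% of all genes) and 3 fell (15.8%, against 5.98%). The median log2 fold change was -0.16 beside -0.01 for all genes. Pop5, a protein subunit of RNase P, which trims the leading end of tRNA, had 12.2, 13.2 and 10.5 CPM in blank and 5.11, 7.93 and 7.41 CPM in mtDNA libraries. All 3 mtDNA values were lower (log2 -0.80 ± 0.19, edgeR adjusted p = 0.00507, DESeq2 0.0688). Tsen15, a subunit of the endonuclease that cuts introns out of tRNA, fell too (log2 -0.69 ± 0.20, edgeR adjusted p = 0.0197). That call ended with DESeq2 (adjusted p = 0.238) and, in edgeR, without blank 2 (0.0713), blank 3 (0.0571), mtDNA 1 (0.0603) or mtDNA 2 (0.0614). With upper-quartile factors 5 genes of the list fell and with library totals alone 10.

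The amino acid response, which ATF4 drives, had members in both directions: 3 of 25 tested genes rose (12.0%, against 11.9% of all genes) and 4 fell (16%, against 5.98%), with a median of -0.05. Mthfd2, a mitochondrial enzyme of folate metabolism, had 85.2, 84.0 and 92.9 CPM in blank and 111, 120 and 114 CPM in mtDNA libraries. The groups lay well apart (log2 0.40 ± 0.066, edgeR adjusted p = 0.000106). Slc3a2, the shared heavy chain of several amino acid transporters, rose by log2 0.24 ± 0.054 (edgeR adjusted p = 0.00272), but did not pass under library totals (0.0811). Slc1a5, a glutamine carrier, and Slc7a1, a carrier of arginine and lysine, fell, with log2 fold changes of -0.33 ± 0.073 and -0.35 ± 0.095 (edgeR adjusted p = 0.00285 and 0.0116). The call of Slc7a1 ended with DESeq2 (adjusted p = 0.122) and without mtDNA 1 (0.0545). Under library totals 2 genes of the list rose and 10 fell, and with upper-quartile factors 3 rose and 10 fell. Atf4 itself had 197, 182 and 191 CPM in blank and 221, 194 and 206 CPM in mtDNA libraries (log2 0.12, edgeR adjusted p = 0.173), with groups that overlapped. Asns, asparagine synthetase and a textbook target, had log2 0.26 (edgeR adjusted p = 0.101). Atf4 and Asns were named for their role and not by rank.

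Among the 9 genes of the eIF2-alpha kinases and their phosphatase regulators 2 rose (22.2%, against 11.9% of all genes) and 1 fell (11.1%, against 5.98%). Eif2ak2, which encodes PKR, the kinase that senses double-stranded RNA and a known interferon-stimulated gene, had 66.6, 39.5 and 63.7 CPM in blank and 175, 188 and 201 CPM in mtDNA libraries. Every mtDNA library was above every blank one by a wide gap (log2 1.75 ± 0.11, edgeR adjusted p = 3.68e-11). Eif2ak4, which encodes GCN2, the sensor of uncharged tRNA, had log2 -0.02 (edgeR adjusted p = 0.931, 95% confidence interval -0.23 to 0.20). Gcn1, the activator of GCN2 on ribosomes, fell (log2 -0.26 ± 0.063, edgeR adjusted p = 0.00474), and passed without each library and with DESeq2 (0.0285). Ppp1r15b, a regulator of the phosphatase that reverses the kinases, rose by log2 0.20 (edgeR adjusted p = 0.0155). That call ended with DESeq2 (adjusted p = 0.0644), upper-quartile factors (0.119) and library totals (0.291), and without blank 2 (0.0693), blank 3 (0.0717) or mtDNA 3 (0.0545).

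Tryptophan is both the substrate of the enzyme encoded by Wars and the target of suppressive enzymes of myeloid cells. Of 8 genes of tryptophan breakdown 5 were tested, of which 2 rose (40.0%, against 11.9% of all genes) and 0 fell (against 5.98%). Kynu, kynureninase, had 23.5, 23.4 and 20.1 CPM in blank and 29.4, 29.6 and 32.4 CPM in mtDNA libraries, without overlap. Its log2 fold change was 0.44 ± 0.11 (edgeR adjusted p = 0.00728), a rise that did not pass with DESeq2 (0.104). Il4i1, an amino acid oxidase, had log2 0.20 (edgeR adjusted p = 0.0352). That call ended with DESeq2 (adjusted p = 0.214), upper-quartile factors (0.181), library totals (0.388) and no filter (0.0613). Among the omissions of a single library it held only without blank 3, with adjusted p of 0.0594 to 0.16 in the others. Ido1, which opens the kynurenine route, had 24 and 45 reads over the 3 libraries of each group and stayed under the filter, so a difference was not tested at this depth. Tdo2 had 0 reads in every library, where 3 reads would be 0.601 to 0.767 CPM.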

How the data were processed

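Per the labels' protocols, directional libraries of poly(A) RNA from blank and mtDNA cells, 3 of each, were read from 1 end over 75 bases. The authors deposited 1 table of raw read counts, whole numbers for each gene. The submitters' processing notes name STAR 2.7.10a, GRCm39, FastQC and DESeq2. For the annotation release and for strand, the setting is not given in the sources used here. Libraries were grouped by the treatment label. Symbols came from GENCODE M21 (GRCm38) for 52083 of 55359 rows, and coordinates are those of the RefSeq promoter table (GRCm38.p6), a build other than that of the counts.

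All genes were fitted together with edgeR 4.0.16 (R 4.3.3) after its default filter, with TMM factors of 0.947 to 1.05, a two-sided quasi-likelihood test and Benjamini-Hochberg adjustment over the 11190 tested genes. Genes with adjusted p under 0.05 were called. The coefficient of biological variation was 4.54%. Fold changes are mtDNA minus blank. Levels per length used the length of 1 principal GENCODE transcript per gene. Libraries of a group had counts further apart than sampling alone gives (chi-square 1.54 to 2.28 per degree of freedom). All were kept as separate libraries, though that spread cannot tell separate cultures from repeated preparations of 1 culture. Count floors cover counting error only.

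Members and lists were chosen with earlier results of these data known. No test was run over the members as a set. Called members are given in every library, others by values and counts, and from each related list up to 2 risen and 2 fallen genes with the smallest p, or the gene with the smallest p. Shmt2, Eif4ebp1, Ddit3 and Pop1 passed too and are counted but not described. Alternatives were other scaling factors, other filters, DESeq2 1.42.0, limma-voom (limma 3.58.1), a block of neighbouring title numbers and omission of each library. The steps were tested on simulated data. Motifs and shared windows were searched with Python 3.11.15. Some items are not reported here.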

Additional observations from a re-analysis of the deposited data

How the results depend on the processing

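The 6 libraries and their 4018360 to 4911103 counts limit the precision: the thinly counted Pars2 and Mars2 had wide intervals, with 3 libraries a group. The rise of Lars2 passed under all 14 alternatives, which the other 6 member calls did not.

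Without single libraries the cytosolic members had 0 to 2 rises and 1 to 3 falls, the mitochondrial members 0 to 2 falls and all genes 410 to 522 falls, and the cytosolic median was -0.1398 to -0.0776. Upper-quartile factors gave 0 cytosolic rises and 9 falls, 1504 falls among all genes, medians of -0.18 (cytosolic) and -0.28 (mitochondrial) and a cytosolic sum ratio of 0.909. Library totals alone gave 0 cytosolic rises and 11 falls, 5 mitochondrial falls, 861 rises and 2356 falls among all genes, medians of -0.23 and -0.32 and a cytosolic sum ratio of 0.882. DESeq2 gave 0 cytosolic rises, 0 cytosolic falls, 0 mitochondrial falls and 173 falls among all genes; 2129 genes had an unadjusted p under 0.05 there. The filter of 1 CPM and limma-voom each left 1 mitochondrial fall. The cytosolic median was -0.14 without Wars and -0.14 without Gars and Kars. The mitochondrial sum ratio became 0.866 without Lars2, an alternative chosen after seeing the data. Except where construction shows it, as with fewer genes summed, the cause was not tested.

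Estimates near 0 changed sign in uncalled genes. Cars2 turned to -0.0587 with upper-quartile factors and -0.101 with library totals, and Gars to 0.0001 with the 1 CPM filter. Over the omissions of single libraries the ranges were -0.0105 to 0.0354 for Cars2, -0.0256 to 0.0242 for Gars, -0.0501 to 0.0369 for Farsa, -0.132 to 0.0521 for Hars2, -0.305 to 0.0314 for Sars2 and -0.181 to 0.0724 for Wars2. Over all named genes and alternatives 612 combinations kept direction and side of the threshold, 81 lost the call, 21 gained it and 14 changed sign.

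The labels do not pair the libraries. Deviations of libraries with neighbouring title numbers correlated at 0.0404, 0.0449 and 0.0431 across genes, against -0.0486 to 0.00597 for the other combinations. Each deviation was taken from the mean of its group, so these values are not independent, and positive ones force others to be lower. With these numbers as a replicate block 1387 genes rose and 747 fell, and the member counts were 1 and 3 (cytosolic) and 1 and 2 (mitochondrial), as without it.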
